A study of Mus musculus with 768 samples.

Results

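Genes of the epithelial-mesenchymal transition (EMT) were followed across single cells of the mammary tumor stroma, by a list of symbols: the transcription factors *Snai1*, *Snai2*, *Twist1*, *Twist2*, *Zeb1*, *Zeb2*, *Prrx1* and *Prrx2*, and the structural genes *Vim* and *Cdh2*, which are not transcription factors. These are 10 of the 24490 endogenous genes in the deposited tables, and all 10 passed the filter on low values (an average of 1 RPKM or more over the classed wells, where RPKM are reads scaled for gene length and library depth). The cells came from 2 mammary tumors, taken at an age of 14 weeks from the strain FVB/N-Tg(MMTVPyVT)634Mul/J, in which a mammary tumor virus promoter drives the polyoma middle T oncogene in the mammary epithelium. Cells negative for EpCAM, CD45, CD31 and NG2 had been sorted 1 per well into 1 plate of 384 wells per tumor and sequenced by Smart-seq2, so the tumor was the replicate (n = 2) and tumor and plate cannot be told apart. No cell of a healthy mammary gland was analysed here. Of 768 wells, 727 had at least 10000 reads outside the ERCC spike-ins and were kept.

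In EMT, epithelial cells give up their junctions and take on a motile, mesenchymal state. Snail, Slug (the product of *Snai2*) and the ZEB proteins are zinc finger repressors that bind E-box sequences in promoters such as that of E-cadherin, the TWIST proteins are basic helix-loop-helix factors that bind DNA as dimers, and the PRRX proteins are homeodomain factors of mesenchyme. Fibroblasts and pericytes are mesenchymal from the outset, and in such cells these factors belong to normal lineage programs. Vimentin is an intermediate filament protein and N-cadherin, from *Cdh2*, an adhesion molecule, and both are widely used as readouts of the mesenchymal state.

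Wells were placed in classes by 4 genes that are not among the 10. A well with *Mia* and *Scrg1* both at an RPKM of at least 10 was called Mia/Scrg1-positive (8 wells of tumor 1 and 16 of tumor 2). The remaining wells were vascular where *Rgs5* reached 100 and exceeded *Dcn* (264 and 241 wells), and matrix where *Dcn* reached 100 and exceeded *Rgs5* (86 and 82 wells). The other 30 wells stayed unassigned. The wells nearest each side of a gate had 159 and 71.6 RPKM of *Rgs5*, 104 and 96.9 of *Dcn*, 17.3 and 9.72 of *Mia*, and 13.2 and 4.24 of *Scrg1*. In both tumors all 10 vascular, all 10 matrix and all 7 *Mia*/*Scrg1* markers listed for the classes were read in at least 50% of the wells of their own class, although these lists include the gate genes. Of the vascular markers, 6 and 7 were also read in at least 50% of matrix wells of tumors 1 and 2 and 4 and 5 in at least 50% of Mia/Scrg1-positive wells, and of the matrix markers 6 and 3 were in at least 50% of Mia/Scrg1-positive and 0 and 0 in at least 50% of vascular wells. Median reads per well lay between 191893 and 270110.5 in the 6 combinations of class and tumor. The median share of spike-in reads was 14.3% and 12.3% in vascular, 6.37% and 6.23% in matrix and 11.2% and 5.32% in Mia/Scrg1-positive wells. Epithelial markers, which the sort should have removed, were read in every class, for 7 of 7 genes in vascular wells and 6 of 7 in matrix and in Mia/Scrg1-positive wells of each tumor. Their summed RPKM per well was 1.96 to 5305 (median 266) and 0 to 2622 (median 29.7) in Mia/Scrg1-positive wells of tumors 1 and 2, 0 to 145 and 0 to 1081 in vascular and 0 to 131 and 0 to 817 in matrix wells, with a median of 0 in the last 2 classes. Of 5 endothelial markers *Pecam1* and *Cdh5* were at 0 in all vascular wells, and *Emcn* was read in 36.0% and 53.1% of them.

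Each class had its own order of the 10 genes. On the scale of mean log2(RPKM + 1) over wells, which is per gene length and allows genes to be compared, *Vim* was highest in all 3 classes, with means over 2 tumors of 9.35 ± 0.08 in vascular, 9.61 ± 0.16 in matrix and 8.79 ± 0.60 in Mia/Scrg1-positive wells (SD, n = 2). *Prrx1* was the highest transcription factor of vascular wells at 6.48 ± 0.04, followed by *Zeb2* at 4.72 ± 0.17, and both tumors kept this order. Below them the means of *Snai2*, *Snai1*, *Twist1* and *Zeb1* (3.36 to 2.41) overlapped between neighbours in that order, and *Twist2* at 0.67 ± 0.20 and *Prrx2* at 0.22 ± 0.01 were lowest. In matrix wells *Prrx1* led again at 5.14 ± 0.05, but *Prrx2* at 4.02 ± 0.02 came next, with a level that did not separate from that of *Snai1* at 3.95 ± 0.54 in both tumors, and *Cdh2* at 0.31 ± 0.17 was last. Mia/Scrg1-positive wells had *Prrx1* at 3.83 ± 1.23, *Snai2* at 2.57 ± 1.85, *Cdh2* at 2.32 ± 0.14 and *Zeb1* at 2.24 ± 0.86, 4 genes whose order differed between the tumors. *Prrx2*, *Zeb2* and *Twist2* were close to 0 there (0.23, 0.09 and 0.06).

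**Figure D1:**
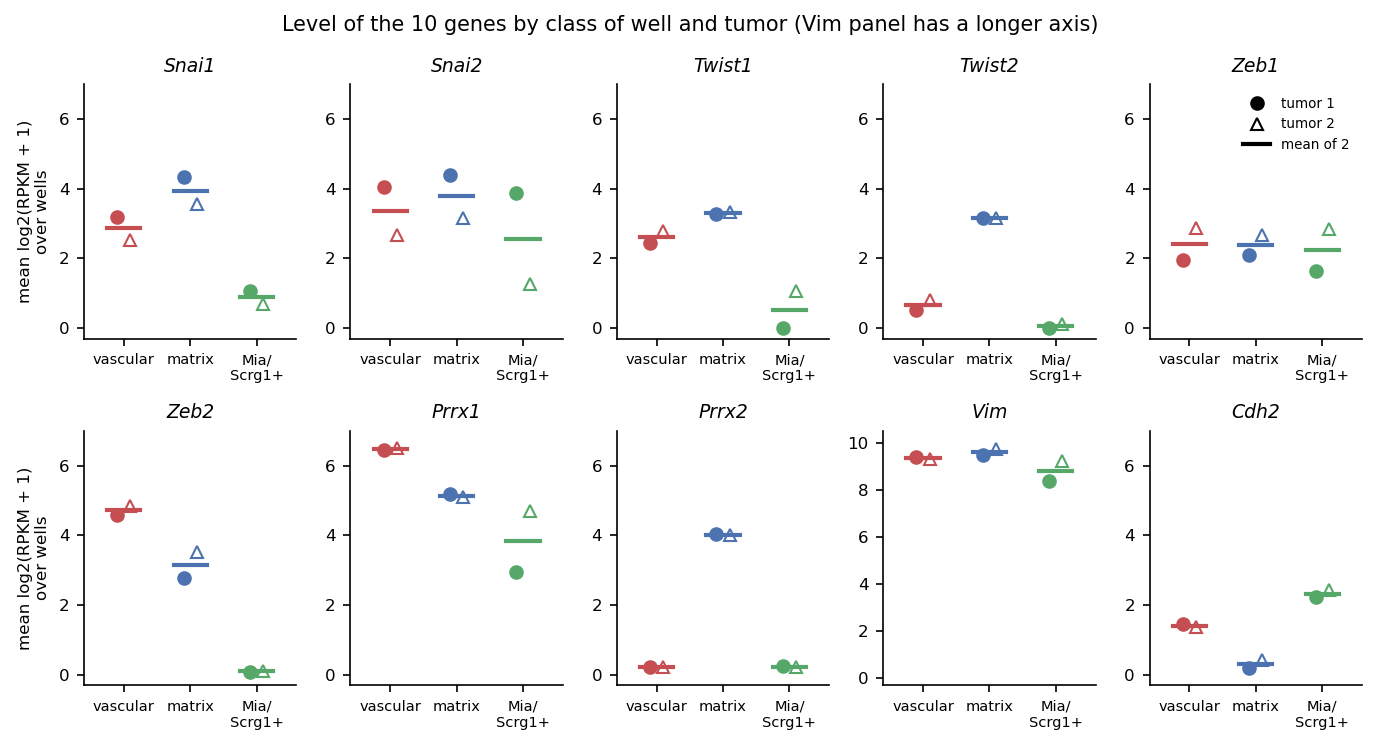
Mean log2(RPKM + 1) of each of the 10 genes over the wells of a class (vertical axis; the Vim panel has a longer axis), with tumor 1 as filled circles, tumor 2 as open triangles and a bar at the mean of the 2 tumors. Prrx2 and Twist2 stand high in matrix wells alone among the 3 classes, Zeb2 lies near 0 in Mia/Scrg1-positive wells, and Cdh2 is lowest in matrix wells.

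For tests, reads were summed over the wells of a class in each tumor, which gave 6 libraries, and the classes were compared with edgeR over 11683 genes at a Benjamini-Hochberg adjusted p of 0.05. In such sums fewer wells with a gene and fewer reads per well cannot be told apart, so shares of wells are given beside the folds. Between matrix and vascular wells, 3.40% of all genes were called higher in matrix and 1.89% lower, and of the 10 genes *Prrx2* and *Twist2* were called higher and none lower. In the same fit 5 of the 10 had an unadjusted p under 0.05, beside 17.2% of all genes, and DESeq2 called 5, beside 14.6% of all genes (*Twist2* and *Prrx2* higher, *Zeb2*, *Prrx1* and *Cdh2* lower). Between Mia/Scrg1-positive and vascular wells, 4.85% of all genes were higher and 7.86% lower, and *Zeb2*, *Twist2*, *Prrx1* and *Snai1* were lower, with none of the 10 higher (6 had an unadjusted p under 0.05, beside 28.4% of all genes, and DESeq2 called 5, all lower, beside 26.8%). Between Mia/Scrg1-positive and matrix wells, 2.98% of all genes were higher and 7.75% lower, and *Zeb2*, *Prrx2*, *Twist2*, *Snai1* and *Vim* were lower and *Cdh2* higher. With the tumor as a replicate block, 1, 4 and 4 of the 10 genes were called in place of 2, 4 and 6, and 326, 922 and 768 genes in all (2.79%, 7.89% and 6.57%) in place of 618, 1485 and 1254 (5.29%, 12.7% and 10.7%).

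These calls rested on a spread estimated from 6 libraries, which the 3 comparisons share. Leaving out any 1 of the vascular or matrix libraries left none of the 10 genes called between matrix and vascular wells (29 to 67 genes in all, while 3 to 6 of the 10 genes had an unadjusted p under 0.05), and leaving out a Mia/Scrg1-positive library raised that count to 5 of the 10. With library sizes set by the spike-ins, the median difference of all genes shifted by 0.63, 0.77 and 0.13 on the log2 scale in the 3 comparisons, and 84.2%, 65.4% and 25.5% of called genes were higher in the class named first in place of 64.2%, 38.2% and 27.8%. No called gene of the 10 changed direction under any of the 24 alternatives with a test, and *Zeb2* between Mia/Scrg1-positive and vascular wells kept its call in all 24.

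**Figure D2:**
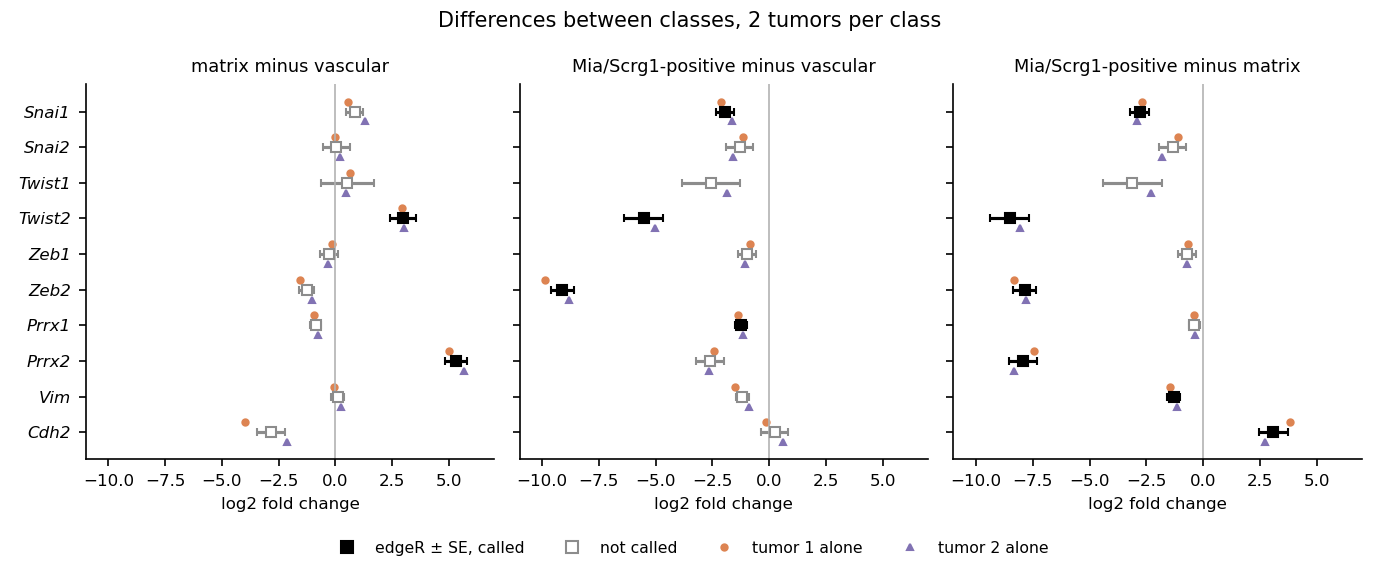
Log2 fold change of each gene between 2 classes (horizontal axis), as fitted by edgeR with its standard error (squares, filled where the adjusted p was under 0.05) and in each tumor alone (circles for tumor 1, triangles for tumor 2; a tumor with 0 reads in a class is not drawn). The squares of Zeb2, Twist2 and Prrx2 lie farthest from 0 in the 2 panels with Mia/Scrg1-positive wells. Between matrix and vascular wells those of Prrx2, Twist2 and Cdh2 do. Snai2 and Zeb1 have unfilled squares in all 3 panels.

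The start regions of 4 of these genes are shown because *Snai1*, *Twist2* and *Zeb2* were called between classes and *Twist1*, the relative of *Twist2*, was not. RefSeq promoter entries on GRCm38.p6 were examined for 7 of the 10 genes, and those of *Prrx1*, *Prrx2* and *Vim* overlapped annotated exons of the gene and are not printed. Start regions of the remaining genes were not examined, which does not mean that RefSeq lacks entries for them. Each line gives the 250 bases before the start on the gene's strand, 5′ to 3′, with capitals at matches to the E-box CAGGTG on either strand (CACCTG on the other), the form bound by Snail and ZEB proteins.
Snai1, chr2:167537945-167538194, plus strand: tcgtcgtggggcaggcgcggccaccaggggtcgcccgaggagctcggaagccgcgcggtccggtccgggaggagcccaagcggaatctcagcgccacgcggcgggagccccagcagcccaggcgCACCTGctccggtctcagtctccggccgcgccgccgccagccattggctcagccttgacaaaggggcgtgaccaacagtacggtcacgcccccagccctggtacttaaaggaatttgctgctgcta
Twist1, chr12:33957421-33957670, plus strand: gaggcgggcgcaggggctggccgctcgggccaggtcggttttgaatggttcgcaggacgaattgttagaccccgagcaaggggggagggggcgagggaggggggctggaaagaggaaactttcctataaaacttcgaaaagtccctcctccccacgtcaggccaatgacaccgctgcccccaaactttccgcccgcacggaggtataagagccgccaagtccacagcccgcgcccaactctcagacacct
Twist2, chr1:91801211-91801460, plus strand: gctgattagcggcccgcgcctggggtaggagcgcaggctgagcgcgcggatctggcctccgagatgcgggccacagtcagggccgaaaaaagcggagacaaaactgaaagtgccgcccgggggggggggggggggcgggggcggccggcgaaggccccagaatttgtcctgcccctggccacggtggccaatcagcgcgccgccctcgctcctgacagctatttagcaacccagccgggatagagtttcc
Zeb2, chr2:45117443-45117692, minus strand: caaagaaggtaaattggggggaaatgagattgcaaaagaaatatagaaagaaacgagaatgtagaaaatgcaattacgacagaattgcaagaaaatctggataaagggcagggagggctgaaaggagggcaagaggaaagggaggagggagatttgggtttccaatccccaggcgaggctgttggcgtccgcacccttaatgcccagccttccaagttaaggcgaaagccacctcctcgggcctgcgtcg
The *Snai1* window held 1 match, which began 126 bases before the start, and the windows of *Twist1*, *Twist2* and *Zeb2* held no match, which says only that these letters are not in them. The *Twist2* window overlaps an exon of the antisense gene *Gm29100*. Over all promoter windows of this length, 5657 of 32851 (17.2%) held the motif. The CCAAT box (CCAAT or ATTGG) was in all 4 printed windows, once in *Snai1*, *Twist1* and *Twist2* and at 2 places in *Zeb2*. The windows of *Prrx1*, *Prrx2* and *Vim* held 0, 0 and 2 matches to it, and 33.8% of all windows held the box. The GC content of the 4 printed windows was 70%, 62.4%, 68.8% and 49.6%, beside a median of 52.4% over all windows. The *Zeb2* window was the poorest in GC of the 4. *Zeb2* has 3 further RefSeq start windows, which overlap annotated exons of the gene and are not printed, and these held 0 matches to either motif at a GC content of 55.6%, 54% and 57.6%.

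*Snai1* (gene 20613, chr2:167538195-167542814, plus strand) encodes Snail, and its level was lowest in Mia/Scrg1-positive wells. Its mean log2(RPKM + 1) was 3.20 and 2.54 in vascular wells of tumors 1 and 2, 4.33 and 3.57 in matrix wells, and 1.06 and 0.70 in Mia/Scrg1-positive wells. Wells were thinned to 50000 reads so that depths were equal, which left out the shallower wells (7 and 14 vascular, 7 and 4 matrix and no Mia/Scrg1-positive wells of tumors 1 and 2) and kept 257 and 227 vascular, 79 and 78 matrix and 8 and 16 Mia/Scrg1-positive wells. After thinning, a read was found in 51.4% and 46.7% of vascular, 78.5% and 64.1% of matrix and 12.5% and 12.5% of Mia/Scrg1-positive wells. Neither tumor's Mia/Scrg1-positive level reached that of another class. The gene lay below vascular wells by a log2 fold change of -1.93 ± 0.40 (SE, edgeR adjusted p = 0.0355) and below matrix wells by -2.79 ± 0.41 (adjusted p = 0.0158), a level 6.94-fold lower. The call against vascular wells was lost with spike-in library sizes (-1.21, adjusted p = 0.116) and without the *Krt14* wells described further on (-2.72, adjusted p = 0.0681), and leaving out 1 vascular or matrix library gave adjusted p values of 0.0714 to 0.207. The call against matrix wells was lost without 1 matrix library (adjusted p = 0.108 without that of tumor 1 and 0.0887 without that of tumor 2). Between matrix and vascular wells the difference was 0.86 ± 0.38 (adjusted p = 0.342).

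*Snai2* (gene 20583), at chr16:14705852-14709395 on the plus strand, was not called in any comparison of classes. Mean log2(RPKM + 1) was 4.04 and 2.69 in vascular, 4.40 and 3.17 in matrix and 3.87 and 1.26 in Mia/Scrg1-positive wells of tumors 1 and 2. The wells of tumor 1 were higher in each class, and within tumor 2 the Mia/Scrg1-positive wells lay below both other classes, which they did less within tumor 1, where 4 of the 5 Mia/Scrg1-positive wells with *Krt14* reads held *Snai2* and 1 of the 3 others did. The log2 fold change was 0.04 ± 0.59 between matrix and vascular wells, -1.30 ± 0.60 between Mia/Scrg1-positive and vascular wells and -1.34 ± 0.60 between Mia/Scrg1-positive and matrix wells (edgeR adjusted p = 0.995, 0.230 and 0.223). *Snai1* was also higher in tumor 1 in all 3 classes, by 0.66, 0.76 and 0.36 on the log2(RPKM + 1) scale, against 1.36, 1.23 and 2.61 for *Snai2*. With 1 tumor per plate, these differences carry no test.

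*Twist1* and *Twist2* had different distributions. *Twist1* (gene 22160, chr12:33957671-33959831, plus strand) had a mean log2(RPKM + 1) of 2.45 and 2.79 in vascular, 3.29 and 3.33 in matrix and 0 and 1.06 in Mia/Scrg1-positive wells, so vascular and matrix wells were close to each other. Its difference between matrix and vascular wells was 0.53 ± 1.17 (edgeR adjusted p = 0.934). In the Mia/Scrg1-positive wells of tumor 1, 0 of 8 wells had a read, so a share of up to 36.9% remains possible (exact 95% interval). With the 0 set to 3 reads, the summed level there was at least 19.6-fold lower than in vascular and 25.3-fold lower than in matrix wells. The exact 95% intervals of these ratios for 0 reads began at 15.96 and 20.5. In tumor 2 the ratios were 3.28 (95% interval of the counts 2.41 to 4.58) and 3.67 (2.68 to 5.15). edgeR called neither difference (adjusted p = 0.258 and 0.196), while limma on the well means, which called 26.2% and 19.8% of all genes in these comparisons, called both (adjusted p = 0.0173 and 0.00820).

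*Twist2* (gene 13345, chr1:91801461-91848034, plus strand) was found mainly in matrix wells. Summed reads were 893 and 1129 in matrix wells of tumors 1 and 2, 358 and 420 in the far more numerous vascular wells, and 0 and 1 in Mia/Scrg1-positive wells. Mean log2(RPKM + 1) was 3.17 and 3.16 in matrix, 0.53 and 0.81 in vascular and 0 and 0.12 in Mia/Scrg1-positive wells. Both matrix values exceeded all others. After thinning, 55.7% (exact binomial 95% interval 44.1 to 66.9) and 50% (38.5 to 61.5) of matrix wells held a read, against 9.34% (6.08 to 13.6) and 14.1% (9.85 to 19.3) of vascular wells. All such intervals cover counting error only. The gene was 7.89-fold higher in matrix than in vascular wells (log2 fold change 2.98 ± 0.57, edgeR adjusted p = 0.0470), a call that was lost with the tumor as a replicate block (adjusted p = 0.0881) and without 1 vascular or matrix library (0.218 to 0.370). Mia/Scrg1-positive wells were lower than matrix wells by a ratio of 207 in tumor 2 (95% interval 37.0 to 8164) and at least 27.9-fold in tumor 1, where 0 reads were set to 3 and the exact 95% interval began at 22.6 (edgeR adjusted p = 0.00620, and 0.0533 and 0.0596 without the matrix library of tumor 1 or 2). They were also called lower than vascular wells (adjusted p = 0.0161), with ratios of at least 4.53-fold in tumor 1 (interval from 3.67) and 30.6 (5.46 to 1211) in tumor 2, and this call was lost under limma (adjusted p = 0.131) and without 1 vascular or matrix library (0.0613 to 0.0842). Of the exonic bases of *Twist2*, 46.5% overlap the antisense gene *Gm29100*, which the tables do not list, and whether reads were counted by strand is not given in the sources used here, so reads of these genes cannot be told apart.

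*Zeb2* (gene 24136, chr2:44983512-45117442, minus strand) was read in most vascular and matrix wells and was close to 0 in Mia/Scrg1-positive wells. It had a mean log2(RPKM + 1) of 4.60 and 4.84 in vascular, 2.77 and 3.53 in matrix and 0.08 and 0.11 in Mia/Scrg1-positive wells of tumors 1 and 2. In summed reads, vascular wells held 22940 and 23058, matrix wells 2594 and 3702, and Mia/Scrg1-positive wells 1 and 4. The 3 classes did not overlap between tumors. Thinned shares were 91.4% (95% interval 87.3 to 94.6) and 91.2% (86.7 to 94.5) of vascular and 69.6% (58.2 to 79.5) and 83.3% (73.2 to 90.8) of matrix wells. Among Mia/Scrg1-positive wells they were 0% (0 of 8 wells, interval 0 to 36.9) and 6.25% (0.158 to 30.2). Relative to library size, vascular wells exceeded Mia/Scrg1-positive wells by a ratio of 871 (95% interval 156 to 34410) in tumor 1 and 420 (164 to 1541) in tumor 2, and matrix wells exceeded them by 243 (43.5 to 9591) and 169 (66.1 to 622). Both differences were called (fitted log2 fold change -9.12 ± 0.51, edgeR adjusted p = 0.00111, and -7.87 ± 0.49, adjusted p = 0.00234). When wells with either *Mia* or *Scrg1* were admitted, which adds wells outside the gate for both, the difference from vascular wells shrank to -1.90 (adjusted p = 0.0251) and that from matrix wells to -0.67 (adjusted p = 0.230). Matrix wells lay below vascular wells by -1.25 ± 0.33 (adjusted p = 0.105 in edgeR and 0.0108 in DESeq2). For *Zeb2*, 3.30% of exonic bases overlap other genes, whose reads in the tables sum to 465 over all wells.

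*Zeb1* (gene 21417, chr18:5591327-5775468, plus strand) was spread over all classes. Mean log2(RPKM + 1) was 1.96 and 2.87 in vascular, 2.11 and 2.68 in matrix and 1.63 and 2.84 in Mia/Scrg1-positive wells, with tumor 2 higher each time. Thinned shares of wells were 40.9% and 59.0%, 49.4% and 62.8%, and 37.5% and 75%. No difference between classes was called (edgeR adjusted p = 0.874, 0.179 and 0.317 for log2 fold changes of -0.27 ± 0.39, -0.97 ± 0.39 and -0.70 ± 0.39), and the sign of the first turned with spike-in library sizes (0.34). Mia/Scrg1-positive wells thus held *Zeb1* reads almost without *Zeb2*. *Zeb1* alone was found in 37.5% and 75% of them after thinning, against 2.33% and 4.41% of vascular and 15.2% and 8.97% of matrix wells.

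*Prrx1* (gene 18933, chr1:163245119-163315145, minus strand) was read in nearly every vascular and matrix well, in 98.8% and 96.9% of the former and 94.9% and 88.5% of the latter after thinning. Its mean log2(RPKM + 1) was 6.46 and 6.51 in vascular, 5.18 and 5.11 in matrix and 2.96 and 4.69 in Mia/Scrg1-positive wells. Both tumors gave the same order of classes. Mia/Scrg1-positive wells lay 2.38-fold below vascular wells (log2 fold change -1.25 ± 0.25, edgeR adjusted p = 0.0324). The difference was -0.45 with spike-in library sizes (adjusted p = 0.513) and -0.92 without *Krt14* wells (adjusted p = 0.0770), and adjusted p was 0.0784 to 0.195 without 1 vascular or matrix library. Matrix wells differed from vascular wells by -0.86 ± 0.25 (adjusted p = 0.139 in edgeR and 0.00734 in DESeq2), and from Mia/Scrg1-positive wells by a difference that edgeR did not call (-0.39 ± 0.25 for Mia/Scrg1-positive minus matrix, adjusted p = 0.371).

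*Prrx2* (gene 20204, chr2:30845064-30881251, plus strand) had the largest fold of the 10 genes between matrix and vascular wells. Summed reads were 1427 and 1343 in 86 and 82 matrix wells, 134 and 80 in 264 and 241 vascular wells, and 1 and 1 in Mia/Scrg1-positive wells. The mean log2(RPKM + 1) was 4.03 and 4.01 in matrix, 0.21 and 0.23 in vascular and 0.24 and 0.21 in Mia/Scrg1-positive wells. Matrix wells stood far above both other classes, which overlapped each other. Among matrix wells the highest values were 255 and 260 RPKM and the medians 38.7 and 40.1. Thinned shares were 65.8% (95% interval 54.3 to 76.1) and 66.7% (55.1 to 76.9) of matrix and 3.11% (1.35 to 6.04) and 2.20% (0.719 to 5.07) of vascular wells. The gene was 39.7-fold higher in matrix than in vascular wells (log2 fold change 5.31 ± 0.48, edgeR adjusted p = 0.00729). Without 1 vascular or matrix library the difference was 5.06 to 5.63 and the call was lost, with an adjusted p of 0.0698 to 0.0905. Matrix wells exceeded Mia/Scrg1-positive wells by ratios of 134 (95% interval 23.9 to 5278) and 246 (44.0 to 9710), with an edgeR adjusted p of 0.00333 that became 0.0916 when wells with either *Mia* or *Scrg1* were admitted. Between Mia/Scrg1-positive and vascular wells the edgeR difference was -2.61 ± 0.62 (adjusted p = 0.0512), and its sign turned in limma on well means (0.0071).

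*Vim* (gene 22352, chr2:13574311-13582826, plus strand) was read in every Mia/Scrg1-positive well and in at least 98.7% of the wells of each other class and tumor after thinning. Its mean log2(RPKM + 1) was 9.41 and 9.29 in vascular, 9.50 and 9.73 in matrix and 8.37 and 9.21 in Mia/Scrg1-positive wells. The lowest class was the Mia/Scrg1-positive one in each tumor, by little in tumor 2. Summed reads gave a level 2.44-fold below matrix wells (log2 fold change -1.29 ± 0.29, edgeR adjusted p = 0.0490), a call lost with the replicate block (adjusted p = 0.0608) and in 16 of the 24 alternatives, among them each that left out a vascular or matrix library (0.134 to 0.222). The difference from vascular wells was -1.18 ± 0.29 (adjusted p = 0.0550). Matrix and vascular wells differed by 0.11 ± 0.29 (adjusted p = 0.946).

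*Cdh2* (gene 12558, chr18:16588877-16809246, minus strand) had its lowest level in matrix wells. Summed reads were 2677 and 2059 in vascular, 56 and 155 in matrix and 100 and 249 in Mia/Scrg1-positive wells, although the last class held 8 and 16 wells only. Mean log2(RPKM + 1) was 1.44 and 1.35, 0.19 and 0.43, and 2.22 and 2.42, without overlap between classes. Thinned shares of wells were 32.7% and 31.3% of vascular, 5.06% (95% interval 1.40 to 12.5) and 11.5% (5.41 to 20.8) of matrix and 50% (15.7 to 84.3) and 56.2% (29.9 to 80.2) of Mia/Scrg1-positive wells. Mia/Scrg1-positive wells were 8.49-fold above matrix wells (log2 fold change 3.09 ± 0.64, edgeR adjusted p = 0.0408), and the call was lost with the replicate block (adjusted p = 0.0594) and without 1 vascular or matrix library (0.0601 to 0.123). Matrix wells lay below vascular wells by -2.84 ± 0.63, which edgeR did not call (adjusted p = 0.0715) and DESeq2 did (adjusted p = 0.000282). From vascular to Mia/Scrg1-positive wells the edgeR difference was 0.25 ± 0.59 (adjusted p = 0.833), and limma on well means gave 0.92 (adjusted p = 0.0477).

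**Figure D3:**
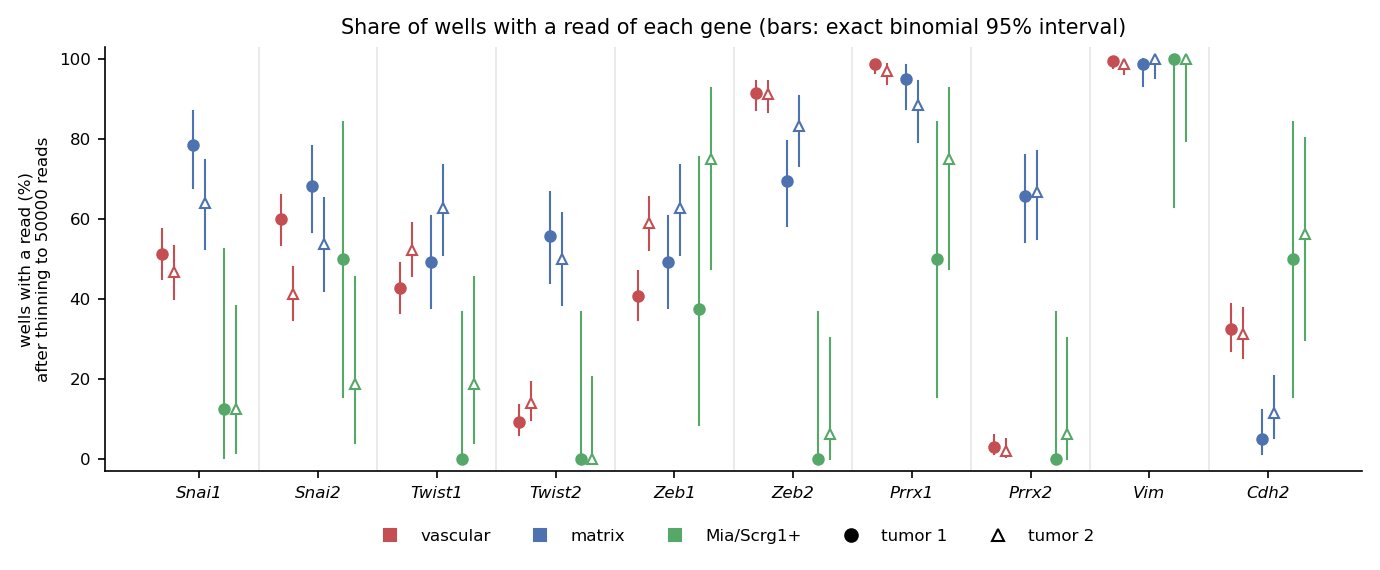
Share of wells with at least 1 read of each gene after thinning to 50000 reads, without the 32 shallower wells (vertical axis, percent), by class (color) and tumor (circles and triangles), with exact binomial 95% intervals that cover counting error only. Prrx2 and Twist2 are found in 50% to 66.7% of matrix wells and in at most 14.1% of the others, and the intervals of the 8 and 16 Mia/Scrg1-positive wells are wide.

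Single wells usually held several of the 8 transcription factors. After thinning, the median number read per well was 4 in vascular wells of both tumors, 5 and 6 in matrix wells and 1.5 and 2 in Mia/Scrg1-positive wells, and without thinning it was 4 and 4, 6 and 6, and 2 and 3. Only 1 matrix well in each tumor and 1 Mia/Scrg1-positive well of tumor 2 had none of the 8 after thinning. In vascular wells *Prrx1* came without *Prrx2* in 95.7% and 94.7%, whereas matrix wells held both in 63.3% and 62.8%. *Zeb1* and *Zeb2* were read together in 38.5% and 54.6% of vascular and 34.2% and 53.8% of matrix wells. *Snai1* with *Snai2* shared 34.6% and 18.9% of vascular and 53.2% and 39.7% of matrix wells, and *Twist1* with *Twist2* 22.8% and 30.8% of matrix wells. In vascular and matrix wells these joint shares were close to the product of the separate shares, with 34.2% beside 34.4% for *Zeb1* and *Zeb2* in matrix wells of tumor 1, and the widest gap was 39.7% beside 34.5%, for *Snai1* and *Snai2* in matrix wells of tumor 2. Wells of 1 class share a plate and vary in depth, so these shares are a description.

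**Figure D4:**
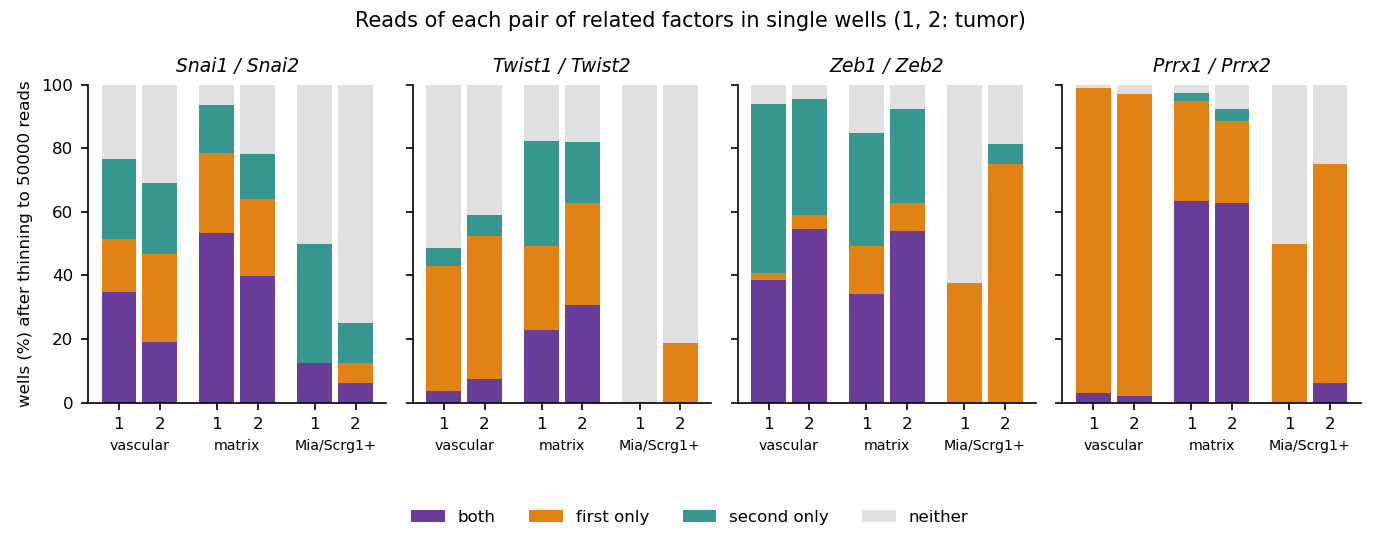
Stacked bars of the share of wells (vertical axis, percent, after thinning to 50000 reads) with reads of both, only the first, only the second or neither gene of each related pair, by class and tumor. Most matrix wells hold both Prrx genes and most vascular wells Prrx1 alone. No Mia/Scrg1-positive well holds both Zeb genes at this depth, whereas wells G18, K21 and M11 of tumor 2 hold both without thinning.

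The Mia/Scrg1-positive wells were not uniform in the 10 genes or in keratin 14, a basal and myoepithelial cytokeratin. *Krt14* was read in 5 of 8 wells of tumor 1 (1.96 to 3083 RPKM) and in 0 of 16 of tumor 2. Of these 5 wells, 4 held *Snai2* at 44.2 to 220 RPKM, and the same 4 had *Zeb1* and *Prrx1* at 0. The 3 other wells of tumor 1 all held *Zeb1* (11.4 to 23.2 RPKM) and *Prrx1* (15.3 to 201 RPKM), and 1 of them held *Snai2*. In tumor 2, *Zeb1* was read in 14, *Prrx1* in 13, *Cdh2* in 12 and *Snai2* in 5 of 16 wells. The split was noticed in these wells and carries no test. Wells H3 and N1 of the *Krt14* group also held *Dcn* at 1335 and 2676 RPKM. In tumor 2, well B4 held *Epcam* at 1337, *Krt18* at 1061 and *Rgs5* at 249 RPKM. Of the other keratins listed, *Krt5* was read in 4 of 8 and 1 of 16 wells of tumors 1 and 2. *Krt8* was read in 1 and 3, *Krt18* in 1 and 5 and *Krt19* in 0 and 2. *Cdh1*, which encodes E-cadherin, was read in 10 of all 24 wells, and 9 of these 10 held *Zeb1* and 8 held *Prrx1*, genes that were read in 18 and 17 of all 24 wells. *Sox10*, a neural crest and mammary progenitor factor, was read in 7 of 8 and 14 of 16 wells, and *S100b*, a glial marker, was read in 4 of 8 and 16 of 16 while the glial genes *Erbb3* and *Foxd3* were at 0. Without the *Krt14* wells, an alternative added after the data were seen, 1, 2 and 5 of the 10 genes were called in the 3 comparisons in place of 2, 4 and 6, and *Zeb2* kept both of its calls. Over all genes, 451, 1314 and 1139 of 11668 were called in that fit. Against vascular wells the calls of *Snai1* and *Prrx1* were lost and that of *Twist2* was kept (adjusted p = 0.0215), and against matrix wells that of *Vim* was lost (0.0684) and those of *Snai1*, *Twist2*, *Prrx2* and *Cdh2* were kept (0.0408, 0.00765, 0.00606 and 0.0429). *Snai2* stood at -2.84 and -2.89 without these wells, in place of -1.30 and -1.34 (adjusted p = 0.0793 and 0.0821).

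**Figure D5:**
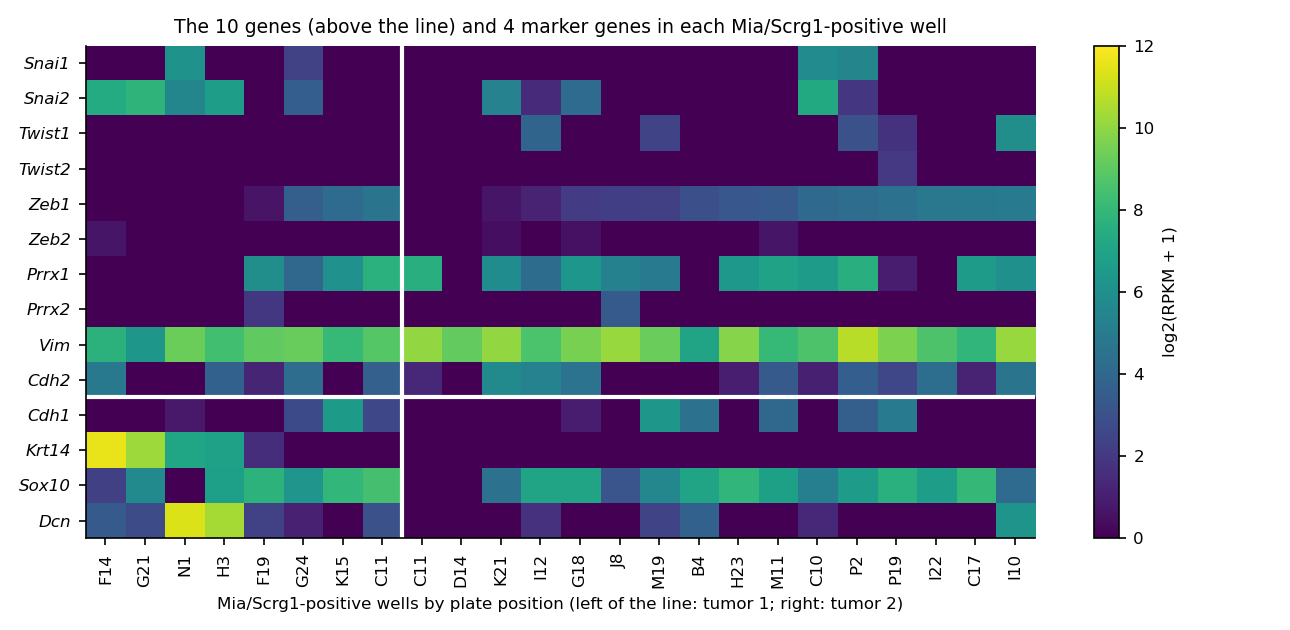
Heat map of log2(RPKM + 1) in the 24 Mia/Scrg1-positive wells (columns, by plate position; tumor 1 left and tumor 2 right of the line, ordered within a tumor by Krt14 and then Zeb1) for the 10 genes and 4 marker genes (rows). The 4 wells highest in Krt14 hold Snai2 and lack Zeb1 and Prrx1, and Vim is read in all 24.

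The same program was read from further gene lists. For 15 mesenchymal genes induced in EMT, all tested, the median of matrix minus vascular was 1.39 on the log2 scale, against -0.04 for all genes. In edgeR, 8 had an unadjusted p under 0.05, beside 17.2% of all genes, and DESeq2 called 8, beside 14.6%. At the adjusted threshold edgeR called 4 higher in matrix wells and none lower, beside 3.40% and 1.89% of all genes. They were *Cdh11* (5.02), an adhesion molecule of mesenchyme, *Tgfbi* (4.86), the metalloprotease *Mmp2* (3.75) and fibronectin, *Fn1* (1.77). In Mia/Scrg1-positive wells 9 of the 15 were lower than in vascular and 11 lower than in matrix wells, beside 7.86% and 7.75% of all genes, with medians of -2.03 and -3.74 against -0.12 and -0.11. Summed *Fn1* reads were 10 and 20 in Mia/Scrg1-positive wells, 58174 and 85318 in vascular and 74361 and 88338 in matrix wells (log2 fold change -8.19 ± 0.46 and -9.96 ± 0.49, edgeR adjusted p = 0.00113 and 0.00147). The exception was *Mmp2*, higher than in vascular wells (1.72 ± 0.22, adjusted p = 0.00929) and lower than in matrix wells (-2.03 ± 0.22, adjusted p = 0.00758).

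Epithelial genes that EMT factors repress were scarce, and 12 of 23 passed the filter on low values. *Krt14* and *Krt5* passed mainly through the Mia/Scrg1-positive wells of tumor 1, where their mean RPKM was 568 and 636, against at most 6.05 and 16.3 in the other classes and tumors, so counts over this list are not read for that class. None was called between matrix and vascular wells by edgeR, DESeq2 or limma, with 0 at an unadjusted p under 0.05. In Mia/Scrg1-positive wells edgeR called *Cd24a* higher than in vascular wells (7.21 ± 1.34, adjusted p = 0.0271) and than in matrix wells (5.71 ± 1.26, adjusted p = 0.0462, 0.0615 with the replicate block). Among intermediate filaments beside *Vim*, 4 of 9 were tested, and desmin, *Des*, was higher in vascular than in matrix wells (log2 fold change of matrix minus vascular -4.98 ± 0.44, adjusted p = 0.00627). *Des* reads were 2 and 4 in Mia/Scrg1-positive wells, 184 and 291 in matrix and 29996 and 16959 in vascular wells, and *Synm* reads, for synemin, were 0 and 0 beside 979 and 1093 in vascular wells.

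Shares called among small lists of partners are read beside those of all genes in the 3 comparisons, 5.29%, 12.7% and 10.7% by edgeR, 17.2%, 28.4% and 27.6% at an unadjusted p under 0.05, 14.6%, 26.8% and 25.4% by DESeq2 and 9.21%, 26.2% and 19.8% by limma. Of 9 dimer partners and inhibitors of TWIST, 7 were tested and edgeR called none between matrix and vascular wells (3 at an unadjusted p under 0.05, 2 by DESeq2 and 1 by limma). *Id2*, an inhibitor of helix-loop-helix dimers, was higher in Mia/Scrg1-positive than in vascular wells (4.88 ± 0.93, adjusted p = 0.0284), and *Tcf4*, an E protein that pairs with TWIST, was lower there than in vascular (-1.59 ± 0.26, adjusted p = 0.0182) and matrix wells (-2.33 ± 0.26, adjusted p = 0.00843). All 10 co-repressors of Snail and ZEB were tested. None was called by edgeR between matrix and vascular wells or between Mia/Scrg1-positive and vascular wells (2 and 2 at an unadjusted p under 0.05, 1 and 2 by DESeq2, 1 and 3 by limma), and *Smarca4* alone passed between Mia/Scrg1-positive and matrix wells (1.16 ± 0.25, adjusted p = 0.0454, 0.0615 with the replicate block). Of 14 other EMT-associated transcription factors, 7 were tested. *Tbx2* was lower in matrix than in vascular wells (-2.16 ± 0.36, adjusted p = 0.0340, 0.0690 with the block) and *Runx1* lower in Mia/Scrg1-positive than in matrix wells (-2.11 ± 0.30, adjusted p = 0.0149), while edgeR called none between Mia/Scrg1-positive and vascular wells (4 at an unadjusted p under 0.05, 3 by DESeq2 and 3 by limma). Of 9 other cadherins 4 were tested, and *Cdh6* was called lower in Mia/Scrg1-positive wells than in both other classes, with 0 and 0 reads there, 152 and 320 in vascular and 110 and 146 in matrix wells (adjusted p = 0.0485 and 0.0438, 0.0967 and 0.0898 with the block).

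Across the 697 classed wells, the 3 tested genes with the highest correlation in log2(RPKM + 1) were taken for each of the 10 genes. *Prrx2* was most like *Svep1*, *Pdgfra* and *Lrrc15* (Pearson r = 0.72, 0.71 and 0.70), and *Twist2* most like *Tspan11*, *Pdgfra* and *Cdh11* (r = 0.53, 0.52 and 0.50). *Zeb2* was most like *Gucy1a3*, *Itga1* and *Rgs5* (r = 0.47, 0.44 and 0.43), the last of which defines the vascular gate. These values include the difference between classes, and within the 505 vascular wells the nearest genes were *Il18*, *Pdcd11* and *Brinp1* for *Prrx2* (r = 0.26 each), *Cdh11* for *Twist2* (r = 0.23) and *Gucy1a3* for *Zeb2* (r = 0.30). *Vim* had *Actb* (r = 0.45) and *Prrx1* had *Prkacb* (r = 0.40) nearest, and the highest r was 0.29 or lower for *Cdh2*, *Snai1*, *Twist1*, *Snai2* and *Zeb1*. Among the 10 genes themselves, the highest r was that of *Twist2* with *Prrx2*, 0.45 over all classed wells and 0.29 within 168 matrix wells, where *Prrx1* and *Vim* had an r of 0.38. Wells of a class share plates and depth, and these values are given as a description.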

How the data were processed

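Sorted cells of 2 mammary tumors were measured by Smart-seq2 (full-length cDNA, 43 bp single-end reads, no molecular identifiers, so reads are not molecules). The authors aligned reads to mm10 with STAR at default settings, counted them per RefSeq gene and computed RPKM values with rpkmforgenes. Both tables hold 768 wells, 24490 endogenous genes and 92 ERCC rows. The deposited counts are raw reads per gene and the deposited RPKM values are scaled by the authors for length and depth.

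Wells under 10000 non-ERCC reads (41) were dropped. The sort gate of the study excluded doublets and no doublet caller was run. Wells with both *Rgs5* and *Dcn* at 100 RPKM (20) were left out as an alternative. Counts of each class were summed per tumor, because wells are not replicates, and the 6 libraries were fitted with edgeR 4.0.16 (quasi-likelihood test, TMM, no covariate, R 4.3.3) over genes averaging 1 RPKM or more, with Benjamini-Hochberg adjustment. *Rgs5*, *Dcn*, *Mia* and *Scrg1* set the classes and were not interpreted. The sources used here do not say whether the tumors came from separate mice, so p-values measure the spread between these 2 samples. Libraries of a tumor are paired by that tumor. Over 11683 genes their deviations from the class means correlated with r = 0.155 (vascular and matrix), 0.0663 (vascular and Mia/Scrg1-positive) and 0.0109 (matrix and Mia/Scrg1-positive), and a fit with the tumor as replicate block was run.

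Alternatives used DESeq2 1.42.0, limma 3.58.1 on mean log2(RPKM + 1) or log2(RPKM + 0.1), other library sizes, filters, gates and well sets. Leaving out *Krt14* wells or each library in turn was chosen after seeing the data. In counts simulated for matrix minus vascular over 11683 genes, 200 of 200 changed and 13 unchanged genes were called. The simulated spread was fixed in advance, and the changed genes were well-read genes given large changes. These counts therefore check the working of the fit and do not measure its power on the real libraries. The text names the 10 genes, at most 4 called genes of largest change per list and comparison, and the 3 genes most like each of the 10. *Krt14*, *Cdh1* and the other genes of the Mia/Scrg1-positive wells, *Mmp2* against the list's direction, and the calls by DESeq2 or limma were added after values were seen. The 10 genes and the lists were chosen with earlier results of these data known. Shares after thinning leave out the 32 classed wells under 50000 reads. Shares have exact binomial 95% intervals, and a count of 0 was set to 3 reads per library. Gene positions and promoters are from RefSeq on GRCm38.p6, and gene strands, exons and overlaps between genes are from the GENCODE annotation. Tables and figures were made with Python 3.11.15, pandas 2.3.3, scipy 1.17.1 and matplotlib 3.10.9.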

Additional observations from a re-analysis of the deposited data

Results flagged for a closer look

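For 3 differences in summed reads the tumors pointed in opposite directions, while the mean log2(RPKM + 1) over wells was higher in both tumors for each, and the differences between tumors were not tested. From vascular to matrix wells *Snai2* changed by a log2 fold change of summed reads of -0.024 in tumor 1 and by 0.19 in tumor 2, and *Vim* by -0.057 and 0.27. From vascular to Mia/Scrg1-positive wells *Cdh2* changed by -0.13 in tumor 1 and 0.60 in tumor 2. None of the 3 was called by edgeR. Reads of the 8 transcription factors also occurred in wells that no comparison used. A read of at least 1 of them was found in 25 of 30 unassigned wells and in 25 of 41 wells with fewer than 10000 reads.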

How the results depend on the processing

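In the order matrix minus vascular, Mia/Scrg1-positive minus vascular and Mia/Scrg1-positive minus matrix, the 618, 1485 and 1254 genes called became 326, 922 and 768 with the tumor as replicate block, 1703, 3127 and 2969 with DESeq2, 1076, 3065 and 2317 with limma on log2(RPKM + 1), 1080, 3295 and 2270 on log2(RPKM + 0.1), 1822, 719 and 516 with only the 4 libraries compared, and 0, 33 and 8 at an adjusted p of 0.001. Spike-in library sizes gave 784 genes in the last comparison, and admitting wells with *Mia* or *Scrg1* gave 788 and 687 in the last 2. With limma on log2(RPKM + 1) 64.8%, 71.8% and 58.2% of calls were higher in the class named first, against 64.2%, 38.2% and 27.8%.

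Of the 10 genes, 2, 4 and 6 were called. In the first comparison the count was 1 with the replicate block, filterByExpr, wells scaled to one total or no *Krt14* wells, 5 with DESeq2 or only 4 libraries, and 0 when wells with *Mia* or *Scrg1* were admitted. In the second it was 2 with spike-in library sizes, without *Epcam*, *Ptprc* or *Pecam1* wells or without *Krt14* wells, and 1 with *Mia* or *Scrg1* wells or only 4 libraries. In the third it was 0 with *Mia* or *Scrg1* wells. At an adjusted p of 0.001 it was 0 in all 3. Over all genes, the first comparison had 546 of 13724 called with filterByExpr and 501 of 11683 with wells scaled to one total. It had 451 of 11668 called without *Krt14* wells and 680 of 11705 with *Mia* or *Scrg1* wells. The second had 1504 of 11683 called with spike-in library sizes and 1235 of 11662 without *Epcam*, *Ptprc* or *Pecam1* wells. Leaving out 1 library gave 29 to 1752, 369 to 4305 and 202 to 4091 genes, and 0 to 5, 1 to 6 and 2 to 7 of the 10. The replicate block ended the calls of *Twist2* between matrix and vascular wells and of *Cdh2* and *Vim* between Mia/Scrg1-positive and matrix wells, and changed no other call of the 10.

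Signs turned only for differences that were not called. Between matrix and vascular wells these were *Snai2* without a gene filter (-0.0016; -0.38 to 0.62 with 1 library or tumor left out), *Zeb1* with spike-in library sizes (0.34) or limma on log2(RPKM + 0.1) (0.18; -0.59 to 0.16 with 1 left out) and *Vim* (-0.057 to 0.27 with 1 left out, among them -0.047). Between Mia/Scrg1-positive and vascular wells these were *Zeb1* under limma on log2(RPKM + 0.1) (0.13), *Prrx2* under limma (0.0071 and 0.13) or with *Mia* or *Scrg1* wells (1.07), and *Cdh2* without *Epcam*, *Ptprc* or *Pecam1* wells (-0.10; -0.13 to 0.60 with 1 left out, among them -0.04). Between Mia/Scrg1-positive and matrix wells it was *Prrx1* with *Mia* or *Scrg1* wells (0.059). The causes of these changes were not tested. With 2 tumors, leaving out a tumor gives values without a test, and 8 and 16 Mia/Scrg1-positive wells limit what can be said of rare reads.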

Other observations

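In the 30 unassigned wells *Vim* was read in 29, *Prrx1* in 20, *Zeb2* in 16, *Snai2* in 13, *Zeb1* in 10, *Twist1* in 9, *Snai1* in 8, *Prrx2* in 7, *Twist2* in 6 and *Cdh2* in 3. In the 41 wells with fewer than 10000 reads *Vim* was read in 19, *Prrx1* in 13 and *Zeb2* in 10, and *Twist2* in 0.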
